A study of Mus musculus with 16 samples.

Results

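Cullin-RING ligases form the largest family of ubiquitin ligases, enzymes that tag proteins with ubiquitin and so mark them for the proteasome. The transcripts of 10 genes that encode their core were followed here in mouse oocytes and eggs with a conditional deletion of a proteasome subunit gene: the cullin scaffolds Cul1, Cul2, Cul3, Cul4a, Cul4b and Cul5, the RING protein Rbx1, the adaptors Skp1a and Ddb1, and the substrate receptor Dcaf13. They were chosen by gene name and not by a rule on measured values, although earlier results of these data were known by then. The expression table held 28618 entries for 27987 gene names, and the 10 genes took 11 of these entries because Dcaf13 was listed a second time. That second entry reached at most 0.122 FPKM and was above 0 in 1 library, so the abundant entry is described.

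A cullin is a long scaffold protein. One end binds RBX1, which recruits the ubiquitin-loaded enzyme, and the other end holds an adaptor and an exchangeable receptor that chooses the substrate. CUL1 works through SKP1 and F-box proteins, CUL2 and CUL5 through elongins, CUL3 directly through BTB proteins, and CUL4A and CUL4B through DDB1 and DCAF receptors. Attachment of NEDD8 switches a cullin on, and the COP9 signalosome removes NEDD8 again. In oocytes these ligases are known for the timed destruction of proteins during meiotic maturation, a period when transcription is silent, so that mRNA levels move by decay and polyadenylation of stored transcripts.

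RNA-seq was made from 16 libraries of C57BL/6 mice, 4 in each of 4 groups: WT GV oocytes, Psma7 cKO GV oocytes, WT MII eggs and Psma7 cKO MII eggs. GV oocytes are fully grown cells still in meiotic prophase, and MII eggs are ovulated cells, normally arrested in the second division. The study reports that part of the ovulated cKO oocytes had stopped at earlier steps of meiosis. The labels call the cKO egg pools MII, and whether cells of earlier steps were among them was not tested. Psma7 encodes the alpha-4 subunit of the proteasome core, and the cKO females carried 2 floxed Psma7 alleles with Zp3-Cre, which is active in oocytes from the primary follicle stage and leaves the follicle cells unmodified. The females of every group were 3 to 4 weeks old and had received 5 IU of PMSG, a gonadotropin. GV oocytes were taken 44 h later, whereas for eggs hCG was given at 44 h and collection followed 14 to 16 h after it, with hyaluronidase removing the cumulus cells. Each library came from a pool, 5 cells according to the sample labels (the study's methods give another pool size), and the labels call the libraries biological replicates without naming the animals. Values are FPKM, fragment counts scaled to transcript length and to the library's total, so every level is a share of its library and not an amount per cell. A lower share cannot be told apart from a rise of the remaining RNA, and since cDNA was primed with oligo-dT, loss of a transcript and loss of its poly(A) tail cannot be told apart either.

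Depth, estimated from the steps between the smallest values, was 10.5 to 15.7 M fragments per library. The fewest fragments behind any value of the 10 genes were 164, for Cul4a, which corresponds to a counting error of 7.82%. Psma7 stood at 165 ± 25.3 FPKM (SD, n = 4) in WT GV oocytes and 14.6 ± 2.82 FPKM in cKO GV oocytes, a log2 fold change of -3.51 (limma adjusted p = 8.98e-07). In cKO eggs Psma7 was 13.6, 50.3, 35.0 and 59.9 FPKM in replicates 1 to 4, against 97.7 to 172 FPKM in WT eggs, a log2 fold change of -1.83 (limma adjusted p = 0.0359). That egg call was lost without cKO replicate 3 or any one of the 4 WT replicates (limma adjusted p up to 0.101). From GV to MII, Psma7 was higher in cKO eggs (log2 fold change 1.27, limma adjusted p = 0.0188) and lower in WT eggs (-0.41, limma adjusted p = 0.0407). The interaction did not pass (1.68, limma adjusted p = 0.0847), and the cause of the higher cKO egg level was not tested. All 10 oocyte markers were present in every group. Of 13 cumulus and granulosa markers, the defining Amh and Foxl2 were at or near 0 (at most 0.0490 FPKM), 2 reached 1 FPKM in GV libraries and 1 in egg libraries, and the summed level was 10.2 to 12.7 FPKM in WT GV, 12.9 to 14.8 in cKO GV, 13.4 to 16.1 in WT MII and 13.7 to 16.1 in cKO MII libraries. Cyp19a1 made up most of it, at group means of 8.10, 9.59, 13.5 and 13.7 FPKM in that order, and Cyp11a1 was next in GV libraries at 1.48 and 1.99 FPKM. The cKO egg libraries differed among themselves in how much of the normally cleared RNA they still held. Over 397 transcripts with WT egg means more than 10-fold below the WT GV means (chosen on these WT libraries, leaving out the 10 genes), the summed FPKM left in eggs was 5.93% to 6.80% of the GV level in WT and 12.7%, 8.80%, 34.5% and 19.0% in cKO replicates 1 to 4. The choice of these transcripts holds the WT share low in advance, so the spread among cKO libraries is described and not the gap to WT. The egg results that the text turns on are therefore also given by single library or with libraries left out.

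The 10 genes lie on 9 chromosomes of GRCm38, the build the submitters name as mm10, and Rbx1 (chr15:81466296-81476369, plus strand) and Dcaf13 (chr15:39112865-39146856, plus strand) share chromosome 15. Cul1 lies at chr6:47453398-47526139 on the plus strand, Cul3 at chr1:80264923-80340480 on the minus strand, Cul4a at chr8:13105621-13147940 on the plus strand and Cul4b at chrX:38533274-38576196 on the minus strand. Skp1a lies at chr11:52231995-52246858 on the plus strand. Ddb1 (chr19:10605327-10629819, plus strand) shares 246 exonic bases, 5.52% of its transcript, with the oppositely oriented gene Tkfc, and Cul5 (chr9:53614582-53670014, minus strand) shares 110 bases, 3.07%, with an antisense RNA. Smart-seq2 does not mark strand, so reads of those stretches belong to either gene. Cul4a and Cul4b are paralogs, and how reads shared between similar genes were divided is not given in the sources used here.

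Because stored mRNAs are controlled through their 3' UTRs during maturation, the last 100 bases of each 3' UTR were searched on the sense strand for 3 elements. These were the cytoplasmic polyadenylation element (CPE, TTTTAT or TTTTAAT), the polyadenylation signal (PAS, AATAAA or ATTAAA) and the Pumilio element (PUM, TGTANATA). A PAS was found in 9 of the 10 genes, against 78.9% of 18168 genes, with Cul5 the exception. A CPE was found in Cul3 and Rbx1, against 18.2% of genes, and a PUM in Cul1 and Dcaf13, against 4.5%. The 30 bases around these 4 matches are shown because Cul1 and Dcaf13 moved in opposite directions during maturation, while Cul3 and Rbx1 are the pair with a CPE. Capitals mark the CPE or PUM together with a PAS that overlaps it.
Cul3, chr1:80264987-80265016, minus strand: gggacagcatttTTTTATttgtcatttaaa
Rbx1, chr15:81476331-81476360, plus strand: ttcaaagttaaTTTTAATAAAaatatttat
Cul1, chr6:47526100-47526129, plus strand: taatttctataTGTAAATAAAagatttaat
Dcaf13, chr15:39146810-39146839, plus strand: tttgggaactcTGTAAATAAAagtcctgag
In Cul1 and Dcaf13 the PUM and the PAS overlapped in the same 10 letters, and in Rbx1 the CPE ran into the PAS. The whole 3' UTR of Dcaf13 is 96 bases, while that of Cul3 is 2233 bases. These are matches of letters in the annotated transcript ends and not measured sites.

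The order of the transcripts was led by Skp1a and Cul1 in all 4 groups. In WT GV oocytes Skp1a averaged 1936 ± 199 FPKM (SD, n = 4), rank 15 of 10939 transcripts averaging 1 FPKM or more, and Cul1 averaged 308 ± 2.78 FPKM, rank 179. Ddb1 (70.4 ± 12.4 FPKM), Dcaf13 (62.2 ± 3.56), Cul4b (54.2 ± 6.60) and Cul5 (46.3 ± 4.29) formed the middle, and each of these overlapped its neighbour in the order. Rbx1, the RING protein that nearly every cullin except CUL5 uses, followed at 21.8 ± 3.84 FPKM and was separated from the genes on both sides. Cul4a (8.04 ± 1.11), Cul3 (6.78 ± 1.19) and Cul2 (6.64 ± 0.634) were lowest and overlapped, near the middle of all transcripts with percentiles of 46.2 to 50.7. In WT eggs the order below Cul1 changed to Cul4b, Cul5, Ddb1, Dcaf13, Rbx1, Cul3, Cul2 and Cul4a, where Dcaf13 and Rbx1 were the neighbours whose libraries overlapped. Cul4a thus went from the eighth place to the last, and Cul4b from the fifth to the third.

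**Figure D1:**
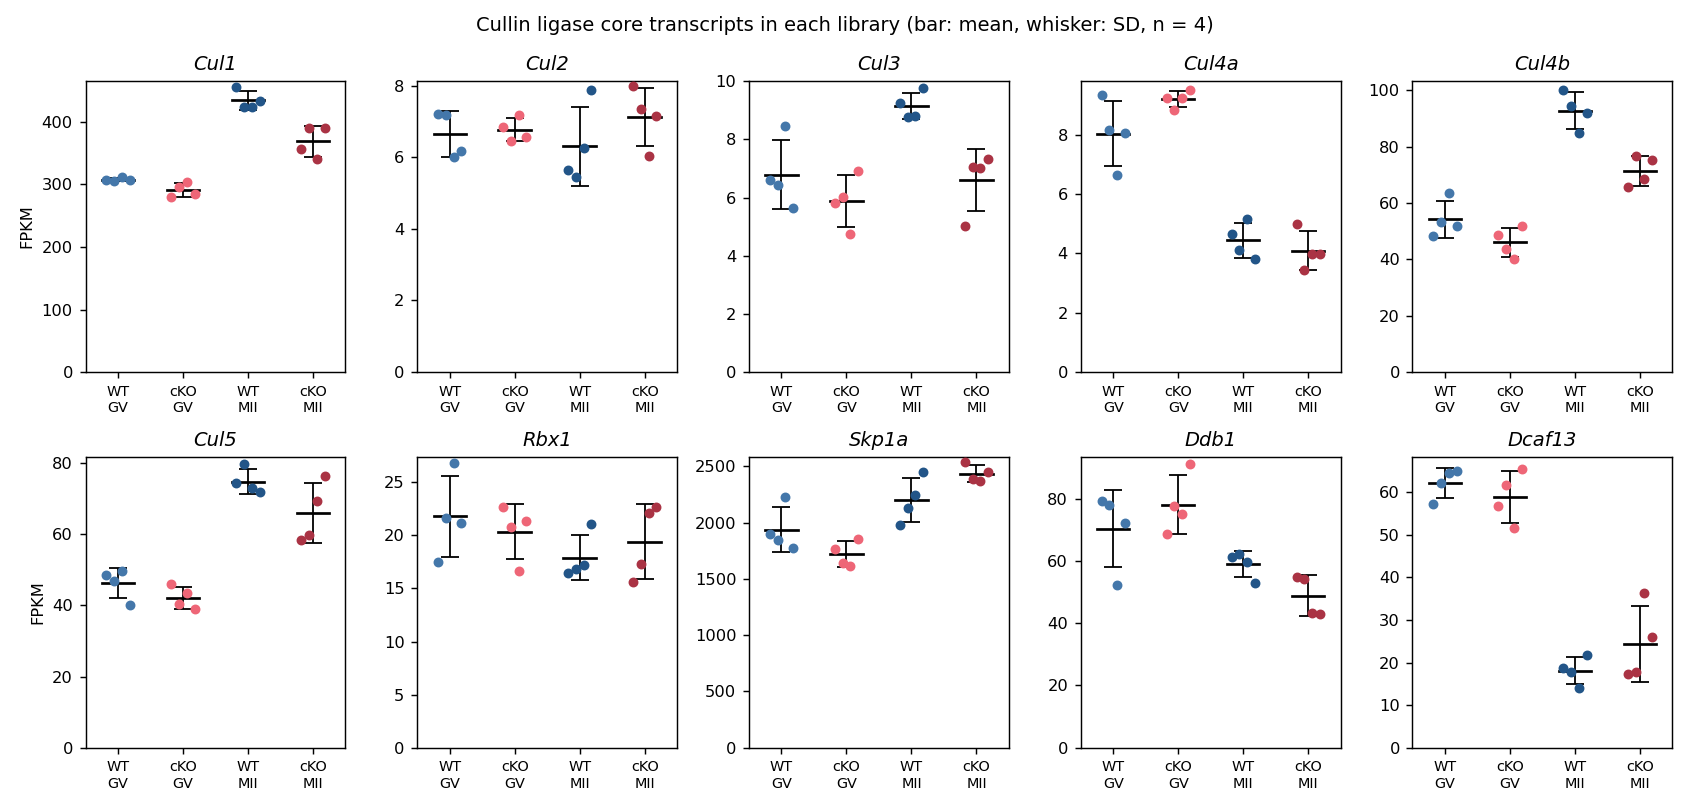
FPKM of each gene (vertical axes, linear and starting at 0) in the 4 libraries of each group, with mean and SD. Dcaf13 and Cul4a stood lower in every egg library than in every GV library of either genotype, and Cul1, Cul4b and Cul5 stood higher. Between genotypes, all cKO libraries lay below all WT libraries for Cul1 at both stages and for Cul3 and Cul4b in eggs.

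In GV oocytes the loss of Psma7 left the cullin core close to WT. With 4 libraries against 4, 0 of 10 genes passed the limma threshold of an adjusted p of 0.05, 0 of 10 had an unadjusted p under 0.05, and the lowest adjusted p was 0.501, for Cul4b. Over all 11062 transcripts tested, 0.118% passed. The log2 fold changes of cKO against WT ran from -0.24 (Cul4b) to 0.21 (Cul4a), with a median of -0.09 beside 0.04 for all transcripts. For Cul1, the tightest of the 10, the 95% interval was -0.24 to 0.08, and for Cul3, the widest, -0.56 to 0.15. These intervals give the size of change that the 8 libraries leave possible.

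Cul1, scaffold of the SCF ligases, was 308, 305, 311 and 307 FPKM in WT GV oocytes and 280.4, 297, 304 and 284 FPKM in cKO GV oocytes. All 4 cKO libraries lay below all WT libraries, and Cul1 was the 1 gene of the 10 whose genotypes did not overlap at this stage, where 6.67% of all transcripts did not overlap and 2.42% did so with cKO lower. Its fold change was small, -0.08 on the log2 scale (SE 0.07, limma adjusted p = 0.752). Ddb1, the adaptor of CUL4, was 79.3, 77.9, 52.3 and 72.2 FPKM in WT and 68.6, 77.5, 75.1 and 91.1 FPKM in cKO, with 1 low WT library. Dcaf13, a CUL4 receptor that is also needed for ribosome production, was 57.1 to 64.8 FPKM in WT and 51.5 to 65.4 FPKM in cKO, and Rbx1 was 17.5 to 26.8 and 16.7 to 22.6 FPKM. None of the 10 differed more than 3-fold between group means of floored values, the fold cut that the study uses. In GV oocytes 7 entries met it here, 0.0245% of all. The study reports more changed transcripts at this cut, so its exact rule was not reproduced.

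In MII eggs 3 scaffolds, Cul1, Cul3 and Cul4b, were lower in every cKO library than in every WT library, and Cul4b passed the test. Of 10 genes, 0 were higher and 1 was lower at an adjusted p under 0.05, where 8.02% of 9492 transcripts passed, 6.53% higher and 1.49% lower. That background itself rests on single libraries, since the 761 transcripts called became 3 without WT replicate 3, 12 without WT replicate 1 and 108 with replicate number as a block. Separation of all 4 cKO from all 4 WT libraries was seen for 3 of 10 genes, all lower, against 20.7% of all transcripts and 7.06% in that direction. The median log2 fold change was -0.15 for the 10 genes and 0.07 for all transcripts. Among the 169 entries over 3-fold apart between floored means, 0.591% of all, there were 0 of the 10 genes. The study again reports more at this cut.

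Cul4b, the X-linked CUL4 scaffold, was 100.2, 94.5, 84.7 and 91.7 FPKM in WT eggs and 65.6, 76.6, 68.4 and 75.2 FPKM in cKO eggs. The highest cKO library stayed below the lowest WT library, and the cKO mean was 77.0% of the WT mean. The log2 fold change was -0.38 (SE 0.08, limma adjusted p = 0.0315). The call was lost without cKO replicate 1 or 3 or without any one WT replicate, with limma adjusted p up to 0.0947, while the sign stayed negative in each of these fits. It was also lost with replicate number as a block (limma adjusted p = 0.0653) and without the trend (limma adjusted p = 0.0517). Without replicate 3, the cKO egg library with the most cleared RNA left, it was -0.36 (limma adjusted p = 0.0584).

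Cul3, scaffold of the BTB ligases, was 9.26, 8.79, 8.81 and 9.75 FPKM in WT eggs and 5.02, 7.06, 7.00 and 7.33 FPKM in cKO eggs, a log2 fold change of -0.49 (SE 0.13, limma adjusted p = 0.0559). Replicate 1 was the lowest of the cKO libraries and the other 3 lay close together. With 1 library left out in turn, the Cul3 value ran from -0.54 to -0.36. Cul1 was 457, 424, 424 and 434 FPKM in WT eggs and 356, 389.6, 341 and 390.3 FPKM in cKO eggs, a log2 fold change of -0.24 (SE 0.07, limma adjusted p = 0.0559). Both genes missed the threshold. Both passed it when transcripts under a mean of 5 FPKM were left out (limma adjusted p = 0.0447 for Cul1 and 0.0454 for Cul3), which made 3 calls of the 9 members still tested, since Cul4a was left out. Both also passed when all 16 libraries shared 1 fit (0.0151 and 0.0379). In the other direction the limma adjusted p was 0.101 and 0.0952 with the replicate block and reached 0.153 and 0.140 without WT replicate 1.

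The other 7 genes did not pass in eggs. Ddb1 was 61.4, 62.3, 59.6 and 52.9 FPKM in WT and 54.8, 54.2, 43.2 and 43.0 FPKM in cKO, a log2 fold change of -0.28 (SE 0.10, limma adjusted p = 0.113). The cKO replicates 3 and 4 were the low pair, and these were also the libraries with the most normally cleared RNA left. Cul5, which pairs with RNF7, had a log2 fold change of -0.19 and overlapped between genotypes through cKO replicate 4 at 76.4 FPKM, since the other 3 lay at 58.3 to 69.3 FPKM. Skp1a, the adaptor of F-box proteins and the most abundant of the 10, leaned the other way at 0.15 (95% interval -0.03 to 0.32), and Cul2, Cul4a and Rbx1 gave 0.19, -0.12 and 0.11. Dcaf13 had the widest interval of the 10, -0.16 to 0.91 around 0.38, and gave 0.17 without cKO replicate 3. Without that library Cul1 was -0.20, Cul3 -0.52 and Ddb1 -0.23. Whether the differences among cKO egg libraries have a part in these values was not tested.

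**Figure D2:**
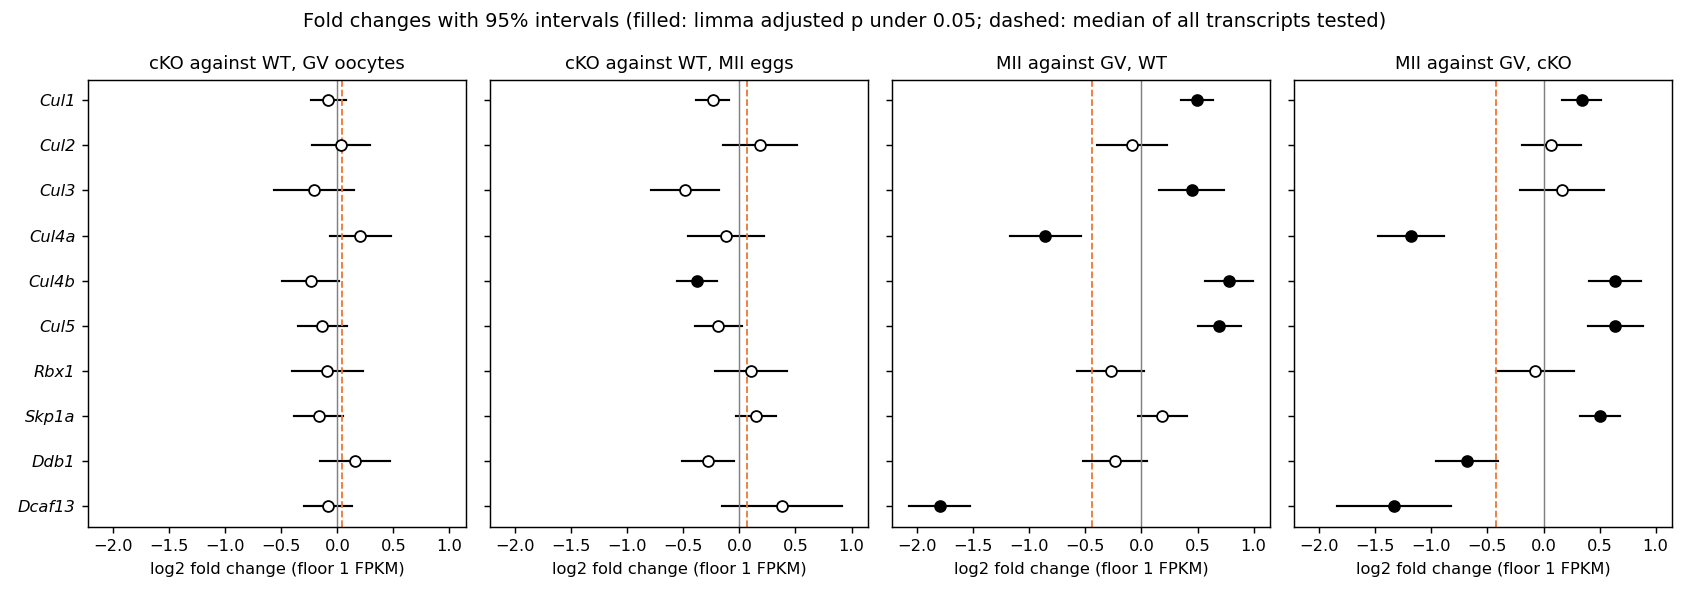
Log2 fold change with 95% interval of each gene in the 4 comparisons (horizontal axis, log2 of FPKM floored at 1), filled where the limma adjusted p was under 0.05, with the median of all transcripts tested as a dashed line. In eggs the filled point is Cul4b at -0.38, and in both maturation panels Cul1, Cul4b and Cul5 stand to the right and Cul4a and Dcaf13 to the left.

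From GV to MII in WT the core split into transcripts that gained share and transcripts that lost it. Of 10 genes, 4 rose (Cul1, Cul3, Cul4b and Cul5) and 2 fell (Cul4a and Dcaf13), while Cul2, Rbx1, Skp1a and Ddb1 did not pass. Passing is common in this comparison, with 78.5% of 10475 transcripts called, 26.1% higher and 52.4% lower, so 6 of 10 is no more than the background. The median was 0.05 for the 10 genes and -0.44 for all transcripts. The same 6 genes were those without overlap between stages, which held for 72.7% of all transcripts, 23.9% higher and 48.7% lower in eggs. Libraries rescaled to the median ratio of 7941 expressed transcripts moved maturation values by 0.23 in WT and 0.20 in cKO on the log2 scale towards higher in eggs (less for transcripts at the floor of 1 FPKM), so fold changes are also given relative to that shift. Under it the same 6 WT calls held and Skp1a was added at 0.42 (limma adjusted p = 0.00602).

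Dcaf13 showed the largest change of the 10. It was 57.1, 62.2, 64.5 and 64.8 FPKM in WT GV oocytes and 18.7, 17.7, 14.1 and 21.7 FPKM in WT eggs, 29.1% of the GV mean. The log2 fold change was -1.80 (SE 0.12, limma adjusted p = 1.98e-07), or -1.57 after rescaling. In cKO it went from 56.6, 61.7, 51.5 and 65.4 FPKM to 17.4, 17.8, 36.3 and 25.9 FPKM (-1.33, SE 0.22, limma adjusted p = 5.05e-04). The cKO eggs fell apart into 2 libraries at 29.6% and 30.2% of the cKO GV mean, within the WT range of 22.7% to 34.9%, and 2 at 61.7% and 44.1%. The latter were replicates 3 and 4, which also held 34.5% and 19.0% of the summed level of the 397 cleared transcripts. Without replicate 3 the cKO value was -1.55 (limma adjusted p = 2.44e-05).

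**Figure D3:**
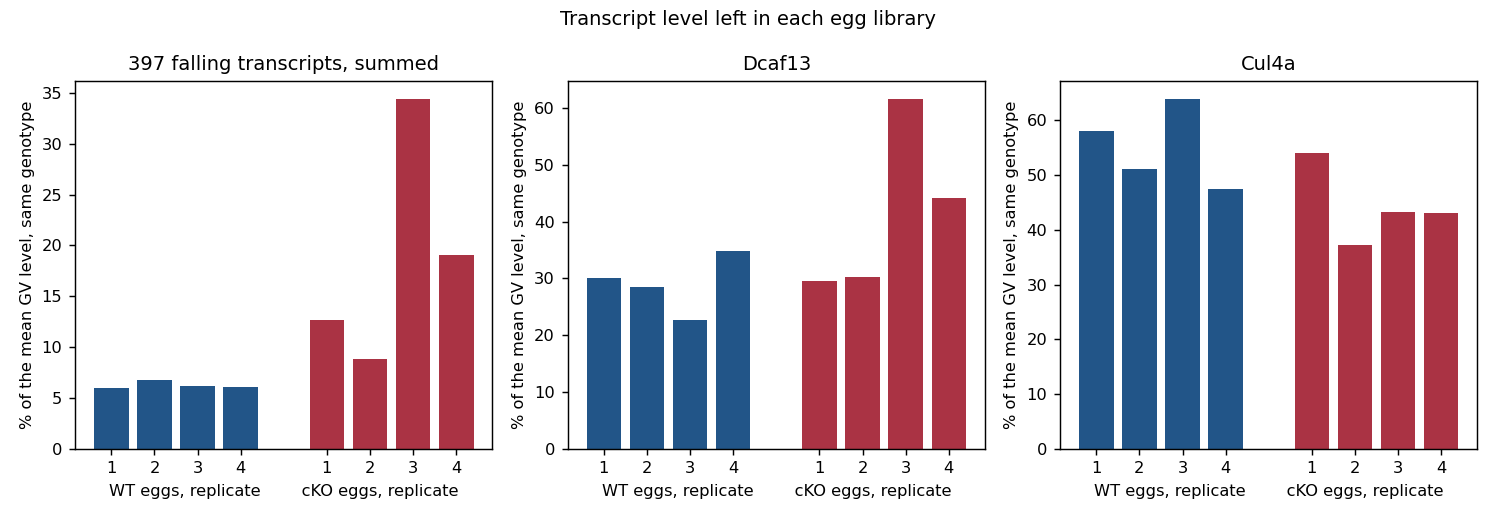
Level left in each egg library as a percentage of the mean GV level of the same genotype (bars, from 0), for the summed FPKM of 397 transcripts cleared in WT, for Dcaf13 and for Cul4a. The cKO replicate 3 stood highest for the cleared transcripts (34.5%) and for Dcaf13 (61.7%), but at 43.2% for Cul4a it lay inside the range of the other cKO eggs.

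The CUL4 scaffolds moved in opposite directions. Cul4a was 9.33, 8.15, 6.63 and 8.04 FPKM in WT GV oocytes and 4.67, 4.11, 5.14 and 3.82 FPKM in WT eggs (log2 fold change -0.86, SE 0.14, limma adjusted p = 2.18e-04). In cKO it went from 9.23, 8.84, 9.24 and 9.50 FPKM to 4.98, 3.44, 3.98 and 3.97 FPKM (-1.18, SE 0.13, limma adjusted p = 3.84e-05). Every egg library was below every GV library in both genotypes, including cKO replicate 3. Cul4b in WT rose from 48.3, 53.2, 63.6 and 51.9 FPKM to the egg values above (0.78, SE 0.10, limma adjusted p = 2.51e-05), and in cKO from 48.5, 43.5, 40.0 and 51.8 FPKM (0.64, SE 0.10, limma adjusted p = 3.98e-04). Both directions held after rescaling, at -0.63 and -0.98 for Cul4a and 1.01 and 0.84 for Cul4b in WT and cKO.

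A ratio of 2 genes in the same library does not depend on how libraries are scaled. Cul4b over Cul4a was 6.93 ± 1.88 (SD, n = 4) in WT GV oocytes and 21.2 ± 3.35 in WT eggs, and 4.99 ± 0.492 and 17.9 ± 3.80 in cKO. The lowest egg library, at 13.2, was above the highest GV library, at 9.59. Ddb1, which both CUL4 proteins need, went from 1.15 ± 0.279 per summed Cul4a and Cul4b to 0.609 ± 0.0488 in WT and from 1.42 ± 0.156 to 0.649 ± 0.101 in cKO. In WT the ranges nearly met, since WT GV replicate 3 stood at 0.745 and the highest WT egg at 0.664. Dcaf13 over Ddb1 was 0.912 ± 0.225 in WT GV oocytes and 0.309 ± 0.0730 in WT eggs, and in cKO eggs it spread from 0.318 to 0.840.

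**Figure D4:**
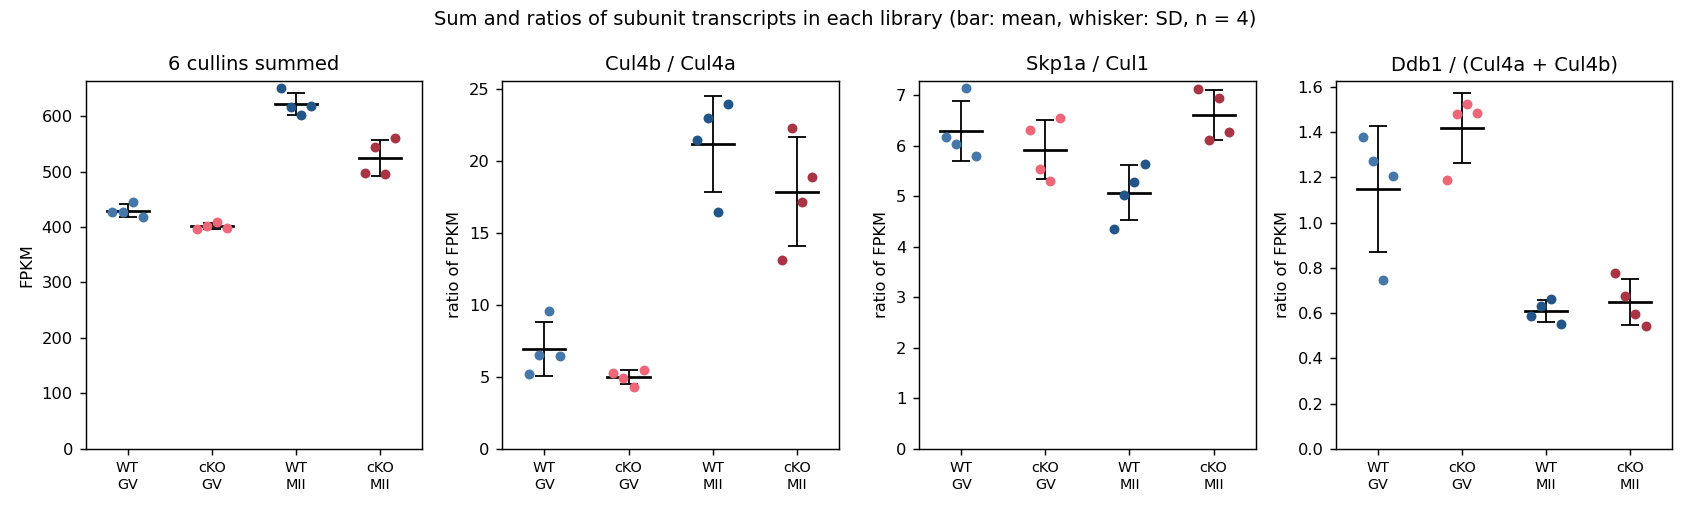
Summed FPKM of the 6 cullins and 3 ratios between subunit transcripts (vertical axes from 0) in the 4 libraries of each group, with mean and SD. The Cul4b to Cul4a ratio is above 13 in every egg library and below 10 in every GV library, and the Skp1a to Cul1 ratio is 4.34 to 5.64 in WT eggs and 6.12 to 7.13 in cKO eggs. The sum and the ratios were not tested.

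Cul1 rose in WT from 305 to 311 FPKM in GV oocytes to 424 to 457 FPKM in eggs (log2 fold change 0.50, SE 0.06, limma adjusted p = 3.01e-05) and in cKO from 280.4 to 304 FPKM to 341 to 390.3 FPKM (0.34, SE 0.08, limma adjusted p = 0.00276). Cul5 rose in WT from 40.1 to 49.7 FPKM to 71.9 to 79.7 FPKM (0.69, SE 0.09, limma adjusted p = 2.41e-05) and in cKO from 38.9 to 45.9 FPKM to 58.3 to 76.4 FPKM (0.64, SE 0.11, limma adjusted p = 5.40e-04). Both changes were the same in direction in every library. Cul3 passed in WT (0.45, SE 0.13, limma adjusted p = 0.00918), where eggs at 8.79 to 9.75 FPKM stood above GV oocytes at 5.63 to 8.44 FPKM. In cKO Cul3 gave 0.17 (95% interval -0.21 to 0.54, limma adjusted p = 0.390), and its stages overlapped. That contrast between genotypes did not itself pass, with an interaction of -0.28 (limma adjusted p = 0.540).

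In cKO, maturation gave 4 higher genes (Cul1, Cul4b, Cul5 and Skp1a) and 3 lower (Cul4a, Ddb1 and Dcaf13) of 10, where 74.0% of 10748 transcripts passed, 23.0% higher and 51.0% lower. The same 7 were without overlap, against 68.6% of all transcripts (21.4% higher and 47.2% lower), and the median was 0.12 for the 10 and -0.42 for all. These 7 calls held under every alternative and with any one library left out. Skp1a was 1899, 1843, 2225 and 1778 FPKM in WT GV oocytes and 1983, 2132, 2244 and 2447 FPKM in WT eggs (0.19, SE 0.10, limma adjusted p = 0.105), which overlapped. In cKO it was 1768, 1644, 1615 and 1858 FPKM in GV oocytes and 2539, 2385, 2368 and 2448 FPKM in eggs (0.50, SE 0.08, limma adjusted p = 3.28e-04), with a wide gap between stages. Ddb1 gave -0.24 (SE 0.13, limma adjusted p = 0.114) in WT and -0.68 (SE 0.12, limma adjusted p = 8.15e-04) in cKO. Relative to the rescaled libraries the Ddb1 values were -0.01 in WT and -0.48 in cKO.

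WT GV replicate 3 decided some of the missing calls in WT. Without it Ddb1 passed (lowest limma adjusted p = 0.00183) and so did Skp1a (lowest limma adjusted p = 0.0171). Rbx1, at 17.5, 21.6, 26.8 and 21.2 FPKM in WT GV oocytes and 16.5, 16.9, 17.2 and 21.03 FPKM in WT eggs, did not pass (-0.27, limma adjusted p = 0.0856) but did so without WT GV replicate 1 or without WT MII replicate 4 (lowest limma adjusted p = 0.0227), and after rescaling it was -0.04. Cul2, which works with elongins and VHL, stayed between 5.44 and 7.99 FPKM over all 16 libraries, with maturation values of -0.09 in WT and 0.07 in cKO.

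The genotype difference in eggs was compared with that in GV oocytes in a fit of all 16 libraries. The interaction passed for 0 of 10 genes, where 1.26% of 10615 transcripts passed, and 2 of the 10 had an unadjusted p under 0.05. These were Skp1a at 0.32 (SE 0.12, limma adjusted p = 0.179) and Ddb1 at -0.44 (SE 0.19, limma adjusted p = 0.227). The median was -0.10 for the 10 and 0.03 for all transcripts. The genotype and maturation comparisons share libraries, so a gene low in cKO eggs enters both.

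The 6 cullins summed to 429.6 ± 11.6 FPKM in WT GV oocytes, 401 ± 5.48 in cKO GV oocytes, 622 ± 20.5 in WT eggs and 524 ± 32.6 in cKO eggs. At each stage every cKO library was below every WT library in this sum (396.7 to 409 against 418 to 446 FPKM in GV oocytes and 496 to 560.3 against 602 to 651 FPKM in eggs). Cul1 made up most of the sum and was itself without overlap between genotypes at both stages. The separation of the sum is therefore not a result about all 6 cullins. Cul1 made up 71.6% ± 1.42 of the sum in WT GV oocytes, 72.6% ± 1.81 in cKO GV oocytes, 69.9% ± 0.758 in WT eggs and 70.4% ± 1.40 in cKO eggs. Cul4b and Cul5 shared most of the rest, at 12.6% and 10.8% in WT GV oocytes and 14.9% and 12.0% in WT eggs. Skp1a per Cul1 was 6.29 ± 0.589 in WT GV oocytes and 5.93 ± 0.591 in cKO GV oocytes, whereas in eggs it was 5.07 ± 0.549 in WT and 6.62 ± 0.494 in cKO without overlap. The ratio was not tested, and neither gene passed between genotypes in eggs, where 20.7% of single transcripts did not overlap. Cullins per Rbx1 were 20.1 ± 3.22 and 20.0 ± 3.09 in WT and cKO GV oocytes and 35.1 ± 4.23 and 27.7 ± 4.82 in eggs, where the genotypes overlapped.

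The machinery around the core was followed in 5 lists with 120 genes in all, of which 119 were in the table. In GV oocytes 1 of the 95 tested was called, or 1.05% beside 0.118% of all transcripts. This was Kctd21, a BTB receptor for CUL3, at 0.709 ± 0.225 FPKM in WT and 3.04 ± 0.537 FPKM in cKO (log2 fold change 1.59 on the floored scale). It passed the filter on low values only through the cKO group where it was high, and most WT values were counted as 1 FPKM, so its fold change is given as a description. In eggs Kctd21 was at or under 0.192 FPKM in every library of both genotypes.

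In eggs 5 list genes were higher in cKO and 1 was lower of 81 tested, 7.41% beside the 8.02% of all transcripts. Of the neddylation and COP9 list, 2 of 21 were higher, the COP9 subunits Cops7a (9.89 ± 1.63 FPKM in WT and 18.1 ± 2.89 in cKO, 0.87, limma adjusted p = 0.0225) and Gps1 (0.51, limma adjusted p = 0.0451). Of the remaining scaffolds, RING partners and adaptors, 2 of 6 were higher and 1 lower. Rnf7, the RING partner of CUL5, was 10.1 ± 1.63 FPKM in WT and 19.9 ± 2.87 in cKO eggs (0.99, limma adjusted p = 0.0191). Tceb1, the elongin C adaptor of CUL2 and CUL5, was 254 ± 15.5 and 433 ± 72.0 FPKM (0.76, limma adjusted p = 0.0191). Arih1, an ariadne ligase that works with neddylated cullins, was lower (-0.44, limma adjusted p = 0.0429), and the CUL5 receptor Asb8 was higher (0.89, limma adjusted p = 0.0319).

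The 5 higher genes all fell from GV to MII in WT, from -1.01 for Tceb1 to -3.21 for Asb8, and Arih1 rose by 1.33. Over all transcripts 52.4% fell and 26.1% rose in WT. The WT egg libraries enter both comparisons, so a low WT egg value favours both results. The pattern is therefore given as a description only. All 6 egg calls were lost in some fits with 1 library left out, most often a WT library, in 2 of 8 such fits for Rnf7, 3 for Tceb1, 4 for Cops7a, 6 for Asb8 and 7 for Gps1 and Arih1, with limma adjusted p up to 0.126. Leaving out WT replicate 1 or WT replicate 3 ended each of the 6. No CRL4 receptor (0 of 17) and no BTB receptor (0 of 20) was called in eggs, where 8.02% of all transcripts passed. With lists this short, 0 calls lie close to that share and are not a result about these receptors. Of 90 list genes 1, or 1.11% beside 1.26% of all transcripts, had an interaction past the threshold. This was Tceb1 (0.87, SE 0.18, limma adjusted p = 0.0324, lost without WT GV replicate 1 or 4, cKO GV replicate 2 or 3, or WT MII replicate 1, 3 or 4).

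During maturation the lists fell far more often than they rose, as the whole transcriptome did in these shares of the library. After rescaling, higher calls over all transcripts went from 33.3% to 42.1% of the calls in WT and from 31.1% to 39.8% in cKO. The list counts are given without rescaling. In WT 17 rose and 53 fell of 89 tested (78.7%, beside 78.5% of all transcripts), and in cKO 13 rose and 52 fell of 92 (70.7%, beside 74.0%). Of the neddylation and COP9 list, 3 rose and 15 fell in WT. Cops6 fell from 145 ± 14.1 to 5.49 ± 1.08 FPKM (-4.73, limma adjusted p = 6.80e-10), Cops4 from 203 ± 17.7 to 26.9 ± 1.64 FPKM (-2.91) and the NEDD8-conjugating enzyme of CUL5, Ube2f, from 35.4 ± 2.49 to 4.52 ± 0.301 FPKM (-2.97). The 3 that rose, Nae1 (0.86), Uba3 (0.52) and Dcun1d1 (0.55), named here after their values were seen, encode both subunits of the NEDD8-activating enzyme and a NEDD8 ligase, and they also rose in cKO (0.80, 0.45 and 0.65). Ube2m, Dcun1d2 and Dcun1d4, also named after their values were seen, fell in WT (-1.30, -0.96 and -0.92) and in cKO (-0.84, -0.77 and -0.70). The genes for NEDD8 attachment therefore did not rise as a set.

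Among CRL4 receptors 4 rose and 12 fell of 19 in WT, with Dcaf11 at -3.39, Dcaf17 at -1.88 and Dcaf4 at -1.19. Dcaf4 was under 1 FPKM in every WT egg library (at most 0.722 FPKM) and was counted there as 1 FPKM, so the floor limits its fold change. Among BTB receptors 6 rose and 9 fell of 22, with Kctd10, a CUL3 partner, going from 11.3 ± 3.39 to 1.13 ± 0.201 FPKM (-3.25). The receptors of CUL2 and CUL5 had 3 rising and 12 falling of 20. Lrr1, a CUL2 receptor, rose from 198 ± 28.0 to 585 ± 51.5 FPKM (1.57, limma adjusted p = 1.82e-07), while Asb8 fell from 131 ± 12.3 to 14.1 ± 1.67 FPKM (-3.21). In the scaffold, RING and adaptor list Arih1 rose and 5 of 7 fell, among them Det1, a partner of DDB1, at -2.78 and Tceb1 at -1.01.

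In cKO the corresponding counts were 3 rising and 13 falling of 21 for the neddylation list, 1 and 2 of 7 for scaffolds and adaptors, 3 and 11 of 19 for CRL4 receptors, 5 and 13 of 23 for BTB receptors and 1 and 13 of 22 for receptors of CUL2 and CUL5. Cops6 went from 150 ± 6.16 to 18.2 ± 17.9 FPKM in cKO, where single egg libraries ranged from 6.35 to 44.6 FPKM. Rnf7 (-0.39, limma adjusted p = 0.0588) and Tceb1 (-0.14, limma adjusted p = 0.362) did not pass in cKO, although both had passed in WT. For Rnf7 that contrast did not pass as an interaction (0.72, limma adjusted p = 0.151).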

How the data were processed

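RNA-seq of 16 libraries was analysed, grouped by the genotype and stage in the sample labels. Per the labels, the submitters' processing notes name TopHat2 2.1.1, Cufflinks 2.2.1 and mm10, and the FPKM values were used as the authors deposited them. The gene annotation is not given in the sources used here, and the table holds 0 entries of the ERCC spike-in. Following the study, values under 1 FPKM were set to 1. Log2 values were tested, for transcripts averaging 1 FPKM or more, with limma 3.58.1 in R 4.3.3 (empirical Bayes with a trend, two-sided, Benjamini-Hochberg over all transcripts, threshold 0.05). Each comparison of 2 groups used its 8 libraries, and the interaction used all 16. The scripts were tested on simulated data. Positions, lengths and 3' ends came from GENCODE M21 (GRCm38), by symbol. Depth is an estimate and pools are the replicates, so p-values measure only the spread between these pools. No batch or date was given.

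The members, gene lists and tests were chosen with earlier results of these data known. All 10 members and Psma7 are named, with at most 3 called genes of lowest adjusted p per list and comparison, and any other is marked.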

Additional observations from a re-analysis of the deposited data

Results flagged for a closer look

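In 2 of 44 sets of 4 libraries (11 genes with Psma7, 4 groups) 1 library stood apart from the other 3 by the gap test of Dixon at its 95% level, where chance gives about 1 in 20. Cul3 in cKO eggs was 5.02 FPKM in replicate 1, with the next library at 7.00 FPKM. Rbx1 in WT eggs was 21.03 FPKM in replicate 4, with the next at 17.2 FPKM. Tceb1 passed the test of the genotype by stage interaction at 0.87 as log2 (limma adjusted p = 0.0324), but not in 7 of 16 fits with 1 library left out (limma adjusted p up to 0.0722). In WT Tceb1 went from 517 ± 92.0 to 254 ± 15.5 FPKM (SD, n = 4) between stages, and in cKO from 474 ± 52.1 to 433 ± 72.0 FPKM.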

How the results depend on the processing

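The counts of members called or past the fold rule stayed within 1.5 times of the reported value in 106 of 116 refits. Many of these compare a count of 0 with 0, so they say little about stability. The 10 exceptions all concern the members called between genotypes in eggs. There, 3 members were called with a minimum mean of 5 FPKM (of 9 tested) or all 16 libraries in 1 fit, 0 without a trend, and 0 to 1 with 1 library left out. Deviations of same-numbered libraries from their group means had r from -0.496 to 0.285, over 0.1 in 2 of 16 pairs. Differently numbered libraries were not compared, so whether replicate numbers pair the libraries was not settled. With replicate number as a block, 0 members were called in eggs and no other member call changed, while 6 transcripts in GV oocytes, 108 in eggs and 60 for the interaction were called. Over all transcripts the GV count of 13 became 7 after rescaling, 5 without a filter, 6 with a mean of at least 5 FPKM, 22 without a trend and 157 in 1 fit, and 5 to 19 with 1 library left out. The egg count of 761 became 459 without a filter, 501 without a trend and 1582 in 1 fit, and 3 to 1160 with 1 library left out. A mean of at least 5 FPKM gave 5112 maturation calls in WT and 4962 in cKO, with fewer transcripts tested. The interaction count of 134 became 83 with 1 FPKM added and 208 with a mean of at least 5 FPKM, and 41 to 651 with 1 library left out. Rescaling moved the share of higher calls from 84.6% to 71.4% in GV oocytes and from 81.5% (620 higher, 141 lower) to 70.7% (537 and 223) in eggs. Of 919 refitted member values, 892 kept direction and side of the threshold. The sign turned in 10 uncalled ones. After rescaling these were Cul2 in GV oocytes (-0.0089), Cul2 in WT maturation (0.14) and Rbx1 in cKO maturation (0.12). With 1 library left out the values ran from -0.017 to 0.071 for Cul2 in GV oocytes (negative without WT replicate 3 or 4), from -0.19 to 0.015 for Rbx1 in GV oocytes (positive without replicate 3 of either genotype), from -0.17 to 0.023 for Rbx1 in cKO maturation (positive without MII replicate 1) and from -0.13 to 0.013 for the Cul5 interaction (positive without WT GV replicate 4 or cKO MII replicate 1). The cause was not tested in any of these. Summing the entries per gene name was an alternative chosen after seeing the data. Members with few fragments, Cul2, Cul3 and Cul4a, carry the largest counting error.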
